A study of Mus musculus with 69 samples.

Results

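The response of the mouse cortical collecting duct (CCD) to removal of the opposite kidney was compared between 24 h and 72 h. The members were the 28 CCD libraries among the 69 libraries of the series, and the quantity of interest was, for each gene, the effect of unilateral nephrectomy (UNx) against sham at 72 h minus the same effect at 24 h. Each effect was taken within the table of its own time on log2(TPM + 1), where TPM is a length-scaled transcript abundance, after the libraries of an animal had been averaged. Of 52404 gene identifiers present in both tables, 13253 had a mean of at least 1 TPM in each and were tested.

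All animals were male C57BL/6 mice with the genotype WT, aged 7 weeks at surgery, and CCD segments were dissected by hand from the kidney and sequenced as polyA RNA. The groups were sham at 24 h (8 libraries, 4 animals), UNx at 24 h (7 libraries, 3 animals), sham at 72 h (7 libraries, 4 animals) and UNx at 72 h (6 libraries, 4 animals). The animal is the number after Sham or UNx in the label, and animals at 24 h and 72 h were different groups with no shared controls. Nothing in the labels says whether the same number marks the same litter or day.

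The cortical collecting duct is built of principal cells, which reabsorb sodium and water under aldosterone and vasopressin, and intercalated cells, which move acid and base. When a kidney is lost the remaining one enlarges, a process known as compensatory growth, in which tubule cells gain size and some divide. Dividing cells pass from the G1 phase, gated by cyclin D and by inhibitors of the cyclin-dependent kinases, into DNA replication and then mitosis, and each step has its own set of transcripts.

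Markers of the labelled segment were high in all animals, and those of neighbouring segments were high in some sham animals. The 7 principal cell markers summed to 22133 to 66803 TPM over the animals and the 7 intercalated cell markers to 3434 to 6623 TPM, while the 5 podocyte markers summed to 1.93 to 6.21 TPM. The 6 thick ascending limb markers summed to at most 4243 TPM, in 24 h sham. The 9 proximal tubule markers summed to at most 1745 TPM, in 72 h sham. Between 12681 and 14875 genes reached 1 TPM per library, mitochondrial transcripts made up 1.2 to 4.23%, and sequencing depth is unknown because TPM keeps none. One 72 h sham library of animal 1 had a median correlation with the other libraries of its table of 0.912, against at least 0.960 for all others. In tissue of this kind fewer cells of a type and less RNA per cell cannot be told apart.

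No single gene passed a test for a difference between the nephrectomy effects at 24 h and 72 h, and 43 of the 44 genes that rose at 24 h had a positive effect at 72 h as well. None of the 13253 genes passed an adjusted p of 0.05 for the difference (limma, Benjamini-Hochberg over all genes, 0%, smallest adjusted p 0.637). At an unadjusted p under 0.05 there were 658 genes (4.96%), of which 466 had the higher effect at 72 h and 192 the lower. Without sham animal 4 at 72 h a single gene passed (adjusted p 0.0472 by limma), the predicted gene Gm20650, which was named after its values were seen. Early-only and late-only genes in the sense of a passed difference test therefore numbered 0 and 0.

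Taken singly, each time had its own calls. At 24 h, 44 genes rose (0.332%) and 91 fell (0.687%), and at 72 h 80 genes rose (0.604%) and 1 fell, Gm20650 (0.00755%). Genes that rose at both times numbered 33 (0.249%), which is 24.4% of all genes called at 24 h and 40.7% of those called at 72 h, and 0 genes were called in opposite directions. These counts rest on few animals. The 135 calls at 24 h became 18, 41, 78 and 25 without sham animal 1, 2, 3 or 4, and 6, 7 and 75 without UNx animal 1, 2 or 3. The 81 calls at 72 h became 42 without sham animal 2, and 14, 9, 8 and 42 without UNx animal 1, 2, 3 or 4, and 128 without the 72 h sham library of low correlation. The 33 genes called at both times became 3, 18, 20 and 5 without the 24 h sham animals in order, 2, 2 and 9 without the 24 h UNx animals, 20 without 72 h sham animal 2, and 6, 5 and 5 without 72 h UNx animal 1, 2 or 3. The split by direction moved as well. In the limma model of the 4 groups 34 genes rose and 13 fell at 24 h, with 32 of the 44 and 12 of the 91 genes still called, and at 72 h 185 rose and 22 fell, with 79 of the 80 still called. Without 24 h sham animal 2 the 24 h calls were 21 higher and 20 lower, and without UNx animal 1 they were 4 higher and 2 lower.

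**Figure D1:**
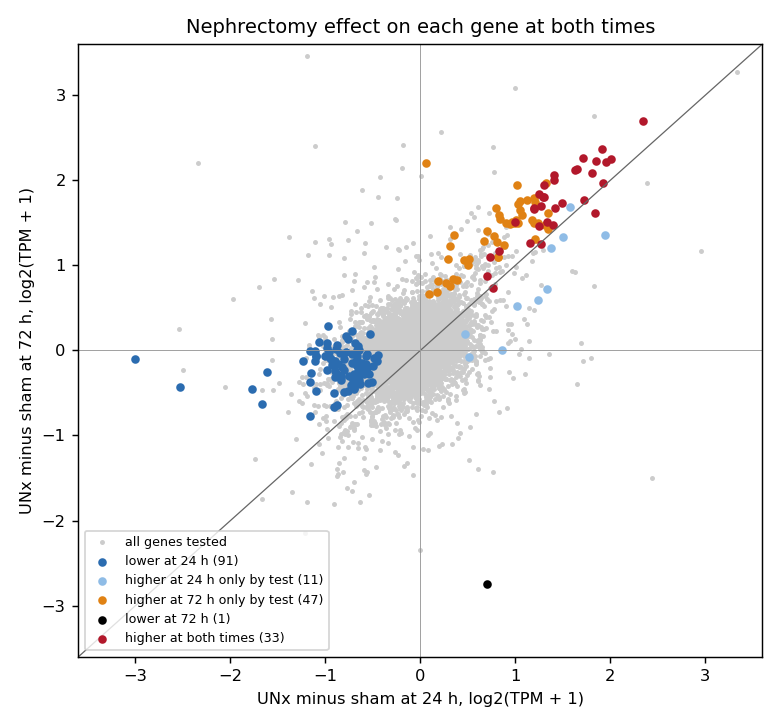
Nephrectomy effect (UNx minus sham, log2(TPM + 1)) at 24 h on the horizontal axis against that at 72 h on the vertical axis for the 13253 genes tested, with genes past an adjusted p of 0.05 in colour and the line of equal effects. The 33 genes called at both times lie near the line, whereas the 91 genes called lower at 24 h lie to the left of 0 with 77 of the 91 below 0 at 72 h, at a median of -0.18, and 3 genes fall outside the axes.

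The contrast between the genes that rose and those that fell was visible in their values at the other time. The 44 genes that rose at 24 h had a median effect of 1.34 on the log2 scale there and 1.67 at 72 h, with 43 of 44 positive at 72 h. The 80 genes that rose at 72 h had a median of 1.51 there and 1.06 at 24 h, and 80 of 80 were positive at 24 h. The 91 genes that fell at 24 h had a median of -0.77 there and -0.18 at 72 h. Of these 91, 77 were still negative at 72 h, 76 had a 72 h effect under 0.5 times their 24 h effect, and 38 had an unadjusted p under 0.05 for the difference. Each of the 3 sets was chosen by its effect at a single time, which favours a smaller effect at the other time. The difference contains that same 24 h effect, so the counts of 76 and 38 were favoured in advance and are a description only. Over all 13253 genes, 3984 had a 72 h effect under 0.5 times their 24 h effect in size, and 658 had an unadjusted p under 0.05 for the difference. Beside the shares of one sign, 60.5% of all 13253 genes (8016) had the same sign at both times. A positive effect was found for 5587 of 13253 genes at 24 h and for 6880 at 72 h. Across the 13253 genes, which are not independent replicates, the effects at both times had a Pearson correlation of 0.422 and a Spearman correlation of 0.333.

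A description by size gave classes without a test. A gene was counted as moved at a time when the animals of the groups did not overlap and the effect was at least 1, and as still at the other time when its effect was under 0.5. By this rule 33 genes were early only (0.249%; 4 higher and 29 lower), 15 were late only (0.113%; 12 higher and 3 lower), 59 were shared (0.445%; 58 higher and 1 lower) and 0 were opposite. Among all genes, the groups did not overlap for 5.71% (higher) and 9.65% (lower) at 24 h and for 3.24% (higher) and 1.58% (lower) at 72 h. With 3 UNx animals at 24 h and 4 at 72 h, groups without overlap arise more easily at 24 h. Early-only and late-only counts by size are therefore not on a like footing. The early-only count became 50, 55 and 79 without 24 h sham animal 2, sham animal 3 or UNx animal 3, and the late-only count 36, 41, 35 and 29 without 72 h sham animal 1, sham animal 4, UNx animal 2 or UNx animal 3. The opposite count became 1 without 24 h sham animal 4, UNx animal 1 or UNx animal 3.

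Genes of mitosis were higher at both times. Of the 46 mitosis and cytokinesis genes tested (50 listed), 23 rose at 24 h and 33 at 72 h, 23 of them at both times, and 0 fell. Their median effect was 1.23 at 24 h and 1.52 at 72 h, beside -0.04 and 0.01 over all genes, and the median of the difference was 0.37. The list was drawn up with earlier results of these data known. The medians at both times stayed above 1 in every alternative setting, whereas the count of 23 at 24 h became 2, 14, 16 and 4 without 24 h sham animals 1 to 4 and 1, 1 and 7 without UNx animals 1 to 3. The count of 33 at 72 h became 22 and 17 without sham animal 1 or 2, and 4, 3 and 3 without UNx animal 1, 2 or 3, and was 36 without the 72 h sham library of low correlation.

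Pbk, a mitotic protein kinase, had 3.09, 7.04, 1.58 and 4.32 TPM in the 24 h sham animals and 15.5, 27.4 and 19.6 in the UNx animals. At 72 h it had 1.62, 3.78, 2.85 and 4.92 TPM in sham and 22.6, 38.8, 23.2 and 19.2 in UNx. The groups did not overlap at either time. The effect was 2.34 ± 0.35 (SE) at 24 h (limma adjusted p 0.0283) and 2.70 ± 0.28 at 72 h (adjusted p 0.00634), and the difference was 0.36 with a 95% interval from -0.67 to 1.39.

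Top2a, the topoisomerase that untangles chromosomes before they separate, stood at 1.82, 4.48, 1.63 and 3.83 TPM in 24 h sham animals and 9.81, 19.1 and 12.3 in UNx animals. At 72 h it stood at 1.66, 2.85, 3.72 and 4.54 TPM in sham and 16.3, 20.6, 19.6 and 13.3 in UNx. The UNx animal numbered 2, a different mouse at each time, was the highest of its time, and no sham animal reached a UNx animal. The effect was 2.01 ± 0.31 at 24 h and 2.25 ± 0.26 at 72 h, with limma adjusted p of 0.0289 and 0.00962.

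Birc5, which encodes the survivin subunit of the chromosomal passenger complex, had effects of 1.93 ± 0.27 and 1.97 ± 0.20 (limma adjusted p 0.0226 and 0.00634), a difference of 0.05 with an interval from -0.70 to 0.80. Cdca3, a trigger of mitotic entry, had 1.95 ± 0.30 and 2.22 ± 0.39 (limma adjusted p 0.0290 and 0.0408). For both genes every UNx animal lay above every sham animal of its time. Stmn1, a microtubule-destabilising protein, was far more abundant, at 19.6, 25, 21.7 and 23.4 TPM in 24 h sham and 46.4, 67.7 and 53.5 in UNx animals. At 72 h Stmn1 was at 16.5, 20.9, 18.8 and 30.8 TPM in sham and 84.5, 92.8, 72.7 and 57.7 in UNx animals. Its effect was 1.29 ± 0.14 at 24 h and 1.80 ± 0.20 at 72 h (limma adjusted p 0.0118 and 0.00805). Stmn1 was chosen after its values were seen. Asf1b, a histone chaperone of replicating chromatin that was also chosen after its values were seen, had effects of 1.19 ± 0.21 and 1.67 ± 0.15 (limma adjusted p 0.0398 and 0.00634).

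**Figure D2:**
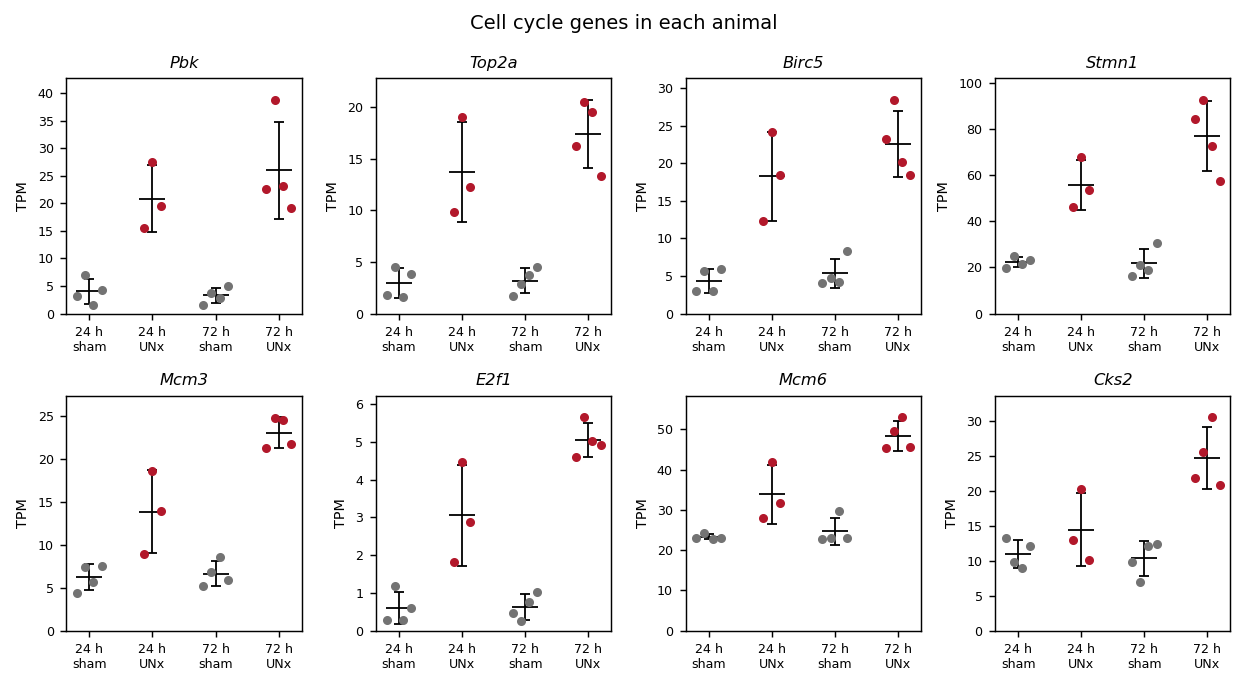
TPM of 8 cell cycle genes in each animal, with 1 point per animal (mean of its libraries), grey for sham and red for UNx, and bars for the mean and SD of 3 or 4 animals. Pbk, Top2a, Birc5, Stmn1, Mcm3, E2f1 and Mcm6 showed no overlap between sham and UNx at either time, while Cks2 overlapped at 24 h.

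Promoters of genes of this kind are shown because the genes rose together at both times. The windows are the 150 bases before the first RefSeq start (GRCm38.p6) of Top2a, Cdk1 and Ube2c, and Cdk1 and Ube2c were chosen after their values were seen. Cdk1, the kinase that drives mitotic entry, rose by 1.85 ± 0.28 at 24 h and 2.23 ± 0.30 at 72 h, and Ube2c, a ubiquitin-conjugating enzyme of mitotic exit, by 1.91 ± 0.21 and 2.36 ± 0.38 (limma adjusted p at most 0.0283 at both times). Capitals mark TTTGAA, the core of the cell cycle homology region, and CCAAT, searched on both strands, so that TTCAAA and ATTGG are the same motifs read from the other strand.
Top2a, chr11:99024190-99024339, minus strand: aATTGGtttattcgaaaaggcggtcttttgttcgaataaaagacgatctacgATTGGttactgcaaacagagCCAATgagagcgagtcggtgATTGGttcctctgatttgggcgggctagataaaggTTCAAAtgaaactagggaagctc
Cdk1, chr10:69352913-69353062, minus strand: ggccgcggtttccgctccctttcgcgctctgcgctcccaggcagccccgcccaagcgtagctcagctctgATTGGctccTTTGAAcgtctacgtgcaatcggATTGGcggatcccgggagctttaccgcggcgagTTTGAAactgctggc
Ube2c, chr2:164769779-164769928, plus strand: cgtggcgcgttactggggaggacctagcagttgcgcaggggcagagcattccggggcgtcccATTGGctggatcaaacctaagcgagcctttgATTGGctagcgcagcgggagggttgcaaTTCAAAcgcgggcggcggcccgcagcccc

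In these windows the TTTGAA motif nearest to the start lay 23 bases before it in Top2a, 15 in Cdk1 and 29 in Ube2c, with 4, 2 and 2 CCAAT motifs upstream of it. Of the 80 genes that rose at 72 h, 67 had a promoter in the RefSeq table (83.8%). In 150-base windows, CCAAT was found in 43 of these 67 (64.2%), TTTGAA in 13 (19.4%) and both in 11 (16.4%), beside 25.3%, 9.2% and 2.3% of all 27025 promoters of the table. Among the genes tested, from which the 80 were drawn, 9896 had a promoter in the table (74.7%), so that set was covered only in part. The same shares over these 9896 were 29.0%, 5.0% and 1.8%. Of the 33 genes called at both times only 26 had a promoter (78.8%), so that set too was covered only in part. CCAAT was found in 20 of these 26 (76.9%), TTTGAA in 9 (34.6%) and both in 9 (34.6%). No test was run on any of these shares. A match is a description of letters and not of a bound site.

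DNA replication genes rose too, 13 of them at 72 h. Of 45 tested genes of DNA replication and S phase (48 listed), 2 rose at 24 h, Rrm2 and Tk1 (both of nucleotide synthesis), and 13 at 72 h, Rrm2 among both, and 0 fell. The median effect was 0.48 at 24 h and 0.76 at 72 h, and the median difference was 0.27. A call at 72 h without one at 24 h is no test of a difference: 0 of the 45 passed it, and 6 had an unadjusted p under 0.05. The 13 calls at 72 h became 4, 2, 2 and 6 without 72 h UNx animals 1 to 4, and the 2 at 24 h became 0 without any single animal of that time.

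Mcm6, a subunit of the replicative helicase, was at 23, 24.3, 22.9 and 23.1 TPM in 24 h sham animals and 27.9, 41.9 and 31.8 in UNx animals. At 72 h Mcm6 was at 22.8, 23.1, 29.7 and 23 TPM in sham and 45.3, 49.6, 53.1 and 45.6 in UNx animals. All UNx animals lay above all sham animals at both times. The effect was 0.51 ± 0.13 at 24 h (limma adjusted p 0.113) and 1.00 ± 0.13 at 72 h (adjusted p 0.0133). The difference of 0.49 had an interval from 0.08 to 0.90 and an unadjusted p of 0.022 by limma, and did not pass adjustment. The helicase subunit Mcm7 had 0.35 ± 0.11 and 0.84 ± 0.15 (limma adjusted p 0.173 and 0.0435), also with a difference of 0.49.

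Mcm3, a further helicase subunit chosen after its values were seen, had an effect of 1.03 ± 0.24 at 24 h (limma adjusted p 0.0873) and 1.71 ± 0.17 at 72 h (adjusted p 0.00634). E2f1, a transcription factor of the G1/S transition that was likewise chosen afterwards, was at 0.295, 1.19, 0.28 and 0.613 TPM in 24 h sham and 1.81, 4.46 and 2.88 in UNx animals. At 72 h E2f1 was at 0.465, 0.27, 0.75 and 1.03 TPM in sham and 4.59, 5.66, 5.02 and 4.93 in UNx animals. It was low in sham animals and separated at both times, with effects of 1.32 ± 0.28 (limma adjusted p 0.0695) and 1.96 ± 0.19 (adjusted p 0.00634). Mki67, the marker of cycling cells, had effects of 0.90 ± 0.21 and 1.45 ± 0.29 and passed the test at neither time (limma adjusted p 0.0838 and 0.0783), although no sham animal reached a UNx animal.

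Of the mitosis list, the members with the smallest p for the difference were Tacc3 and Cenpa. Tacc3, a spindle protein, had effects of 0.70 ± 0.15 (limma adjusted p 0.0695) and 1.40 ± 0.18 (adjusted p 0.0129). Cenpa, the centromeric histone, had 0.84 ± 0.16 (limma adjusted p 0.0556) and 1.55 ± 0.26 (adjusted p 0.0328). The differences were 0.70 and 0.71, with unadjusted limma p of 0.012 and 0.050, and neither passed adjustment.

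A few genes were raised at 72 h with smaller values at 24 h. Cks2, a subunit of cyclin-dependent kinase complexes, was at 13.3, 9.76, 8.94 and 12.0 TPM in 24 h sham and 13, 20.2 and 10.1 in UNx animals. At 72 h Cks2 was at 9.87, 6.95, 12.1 and 12.4 TPM in sham and 21.8, 25.6, 30.5 and 20.9 in UNx animals. The groups overlapped at 24 h and were apart at 72 h. The effect was 0.31 ± 0.23 at 24 h (limma adjusted p 0.564) and 1.23 ± 0.20 at 72 h (adjusted p 0.0257), and the difference was 0.92 with an interval from 0.24 to 1.60.

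Cycs, Pgam1 and Sdhc, 3 genes of energy metabolism, rose at 72 h with smaller values at 24 h, and none of the 3 passed the test of the difference. Cycs, cytochrome c of the respiratory chain, was at 149, 155, 117 and 161 TPM in 24 h sham and 253, 162 and 133 in UNx animals, and at 217, 125, 116 and 152 TPM in 72 h sham and 307, 236, 309 and 374 in UNx animals. Pgam1, a glycolytic mutase, was at 86.3, 78.9, 70.9 and 81.4 TPM in 24 h sham and 114, 84.5 and 76.8 in UNx, and at 87.6, 76.5, 80.7 and 104 TPM in 72 h sham and 142, 141, 163 and 164 in UNx animals. Both genes were raised in every UNx animal at 72 h, while at 24 h UNx animal 1 stood above the other two. The 72 h effects were 1.08 ± 0.17 for Cycs, 0.81 ± 0.11 for Pgam1 and 0.68 ± 0.11 for Sdhc, a subunit of respiratory complex II (limma adjusted p 0.0275, 0.0177 and 0.0221). The 24 h effects of these genes were 0.29, 0.19 and 0.17, and the differences 0.79, 0.62 and 0.51 had unadjusted limma p of 0.014, 0.0036 and 0.0058.

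Of 76 oxidative phosphorylation genes, 0 rose at 24 h and 2 at 72 h (Cycs and Sdhc), with medians of 0.05 and 0.25, and 73 of 76 had a positive difference (7862 of all 13253 genes did). Of 77 cytosolic ribosomal protein genes, 1 fell at 24 h (Rps25) and 0 passed at 72 h, with medians of -0.02 and 0.26 and 72 of 77 positive differences, 26 of them with an unadjusted p under 0.05. The 24 h median of the ribosomal proteins turned to 0.04 under median-ratio scaling, while the 72 h median stayed at 0.24 or above under that scaling and under quantile normalization. Many ribosomal protein genes have near-identical copies in the genome, so their values depend on how reads were shared. Pgam1 was the only glycolysis gene of 31 to pass, at 72 h.

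Kitl, Cdkn1b and Ccnd1 fell at 24 h and did not pass at 72 h, and none of the 3 passed the test of the difference. Kitl, which encodes the ligand of the receptor Kit, was at 116, 114, 104 and 107 TPM in 24 h sham and 28.7, 37.1 and 43.3 in UNx animals. At 72 h Kitl was at 35.6, 72.2, 54.6 and 63.8 TPM in sham and 25.2, 43.2, 50.2 and 48.8 in UNx animals. The 24 h groups were far apart and those of 72 h overlapped, with the 72 h sham animals below the 24 h sham animals in tables that were treated as normalized separately. The effect was -1.77 ± 0.15 at 24 h (limma adjusted p 0.00722) and -0.45 ± 0.28 at 72 h (adjusted p 0.837), and the difference was 1.32 with an interval from 0.56 to 2.08 (unadjusted p 0.0021).

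Cdkn1b, which encodes the p27 inhibitor of cyclin-dependent kinases, was at 16, 14.2, 10.4 and 12.9 TPM in 24 h sham and 3.50, 4.75 and 3.08 in UNx animals. At 72 h Cdkn1b was at 5.75, 6.81, 12.4 and 14.9 TPM in sham and 3.92, 10.9, 8.91 and 8.62 in UNx animals. Here too the animals separated at 24 h and overlapped at 72 h, where the sham animals spread widely. The effect was -1.61 ± 0.18 (limma adjusted p 0.0118) and -0.26 ± 0.39 (adjusted p 0.945), a difference of 1.35 with an interval from 0.32 to 2.38.

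Ccnd1, cyclin D1, was at 109, 81.5, 101 and 78.5 TPM in 24 h sham and 42.9, 43.4 and 53.5 in UNx animals. At 72 h Ccnd1 was at 176, 117, 169 and 128 TPM in sham and 117, 229, 158 and 133 in UNx animals. The gene thus fell at 24 h (-0.99 ± 0.14, limma adjusted p 0.0226) while the animals overlapped at 72 h (0.08 ± 0.21). The difference was 1.07 with an interval from 0.47 to 1.67. Among the 20 cyclins and inhibitors tested, Cdkn1b and Ccnd1 were the only 2 that fell at 24 h, and 1 of the 20 rose at 72 h, the kinase inhibitor gene Cdkn2c (0.79, limma adjusted p 0.0382). The 2 lower calls became 0 without 24 h UNx animal 1 and in the model of the 4 groups, and 1 without 24 h sham animal 1 or UNx animal 2. The call of Cdkn2c was lost without 72 h sham animal 1, 2 or 3 and without any of the 4 UNx animals of that time.

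Anp32a, a histone-binding acidic phosphoprotein, had effects of -1.23 ± 0.18 (limma adjusted p 0.0241) and -0.12 ± 0.32. Zfp871, a zinc finger gene, had -0.90 ± 0.10 (limma adjusted p 0.0118) and -0.13 ± 0.15, and the ribosomal protein gene Rps25 -0.72 ± 0.09 (limma adjusted p 0.0210) and 0.23 ± 0.16, with the copy problem named above. Ccl20, a chemokine, was at 19.9, 2.79, 11.7 and 13 TPM in 24 h sham animals and was listed at 0, 0 and 0.0367 TPM in UNx animals (limma adjusted p 0.0366). At 72 h Ccl20 varied from 0.05 to 21.5 TPM in sham and from 0.565 to 30.4 in UNx animals, and the groups overlapped.

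The 91 genes called lower at 24 h had long transcripts, whereas the early-only class by size did not. The longest annotated transcript of these 91 had a median of 6547 bases, against 3118 over all genes tested and 2644 for the genes that rose at 24 h, and 74 of 91 were longer than the median of all. The 33 genes that were early only by size, 29 of them lower, had a median of 2066 bases, and 12 of the 33 were longer than the median of all. Over 5 equal groups of genes by transcript length, the median 24 h effect was -0.04, -0.00, 0.00, -0.02 and -0.16 from the shortest to the longest, and the 72 h medians were between -0.01 and 0.03. Of the 91 genes, 57 belonged to the group of longest transcripts. The median deviation from the mean of the sham animals in the group of longest transcripts, minus that in the group of shortest transcripts, was -0.29, -0.10 and -0.02 in the 24 h UNx animals and -0.10, 0.08, -0.06 and 0.09 in the sham animals. UNx animal 1 stood lowest at 24 h, and UNx animals 2 and 3 lay within the sham range. At 72 h the same quantity was -0.46, 0.07, 0.20 and 0.20 in the sham animals and 0.01, -0.06, 0.05 and -0.04 in the UNx animals, so that 72 h sham animal 1 was the lowest of all 15 animals. The part of transcript length in the lower 24 h values was not tested.

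Markers of the labelled and of neighbouring segments were summed in the same animals. The 6 thick ascending limb markers summed to 116 to 4243 TPM in 24 h sham animals and 107 to 224 in UNx animals, and the 9 proximal tubule markers to 246 to 565 and 59.8 to 451 TPM. The principal cell markers summed to 25077 to 50456 TPM in sham and 48052 to 66803 in UNx animals at 24 h, and to 22133 to 42759 and 24060 to 31333 TPM at 72 h. In each of these 3 lists the sham and UNx animals of 24 h overlapped. The 6 markers of the distal convoluted and connecting tubule summed to 299 to 427 TPM in 24 h sham and to 427 to 503 in UNx animals, which met without overlapping, and to 286 to 531 and 391 to 595 TPM at 72 h. One of these 6 was at 0 in all 24 h UNx animals, and no marker of the other 3 lists was at 0 in all animals of a group. The part of these segments in the genes that fell was not tested.

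Fewer genes, 11, rose at 24 h without a call at 72 h. Atp4a, the catalytic subunit of the gastric-type proton-potassium pump also found in intercalated cells, was at 325, 306, 318 and 326 TPM in 24 h sham and 799, 728 and 925 in UNx animals. At 72 h Atp4a was at 220, 105, 269 and 289 TPM in sham and 212, 276, 316 and 475 in UNx animals. At 24 h it had the smallest adjusted p of the table (effect 1.34 ± 0.09, limma adjusted p 0.00162), and at 72 h the effect was 0.72 ± 0.34 with overlapping animals. The difference of -0.62 had an interval from -1.49 to 0.25, so a loss by 72 h was not shown. Atp4a was chosen after its values were seen, and it was the only 1 of 29 intercalated cell genes to pass at 24 h.

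Scg5, a secretory chaperone of prohormone convertase, had 81.6, 85.5, 76.6 and 79.3 TPM in 24 h sham and 112, 106 and 130 in UNx animals, and 62.9, 62.3, 64.9 and 75 TPM in 72 h sham and 55.9, 66.6, 63.5 and 64.8 in UNx animals. It rose at 24 h (0.51 ± 0.09, limma adjusted p 0.0355) and overlapped at 72 h (-0.08 ± 0.10), a difference of -0.59 with an interval from -0.87 to -0.31. Abhd3, a phospholipase, and Plekhd1 were early only by size, with 24 h effects of 1.19 ± 0.26 and 1.14 ± 0.34 that did not pass the test (limma adjusted p 0.0717 and 0.157). Their 72 h effects of 0.474 and 0.499 were also positive and only just under the limit of 0.5. The differences of -0.72 and -0.64 had unadjusted limma p of 0.074 and 0.19, so a loss by 72 h was not shown.

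**Figure D3:**
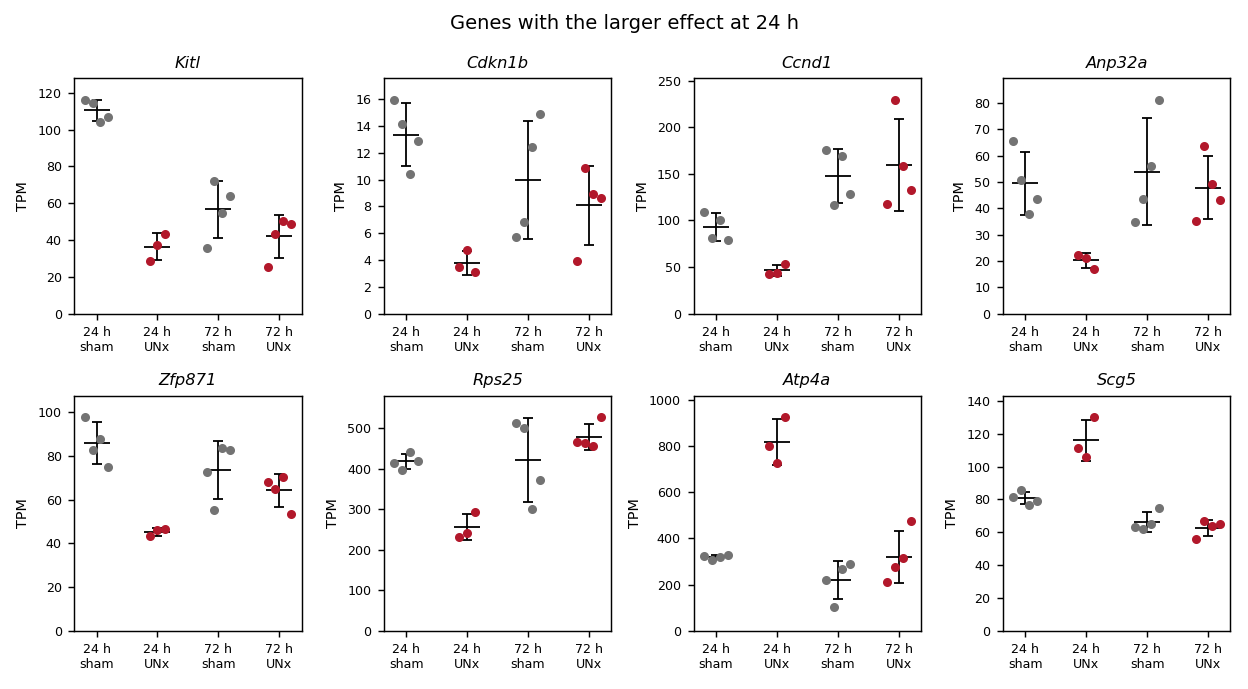
TPM in each animal of 8 genes with the larger effect at 24 h, drawn as in the plot of cell cycle genes. In each of the 8 genes the 24 h groups were apart, and at 72 h sham and UNx animals overlapped.

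Stc1, the calcium- and phosphate-regulating hormone stanniocalcin, was the gene of the shared class by size that was lower. It was at 148, 115, 128 and 177 TPM in 24 h sham and 35.4, 82.4 and 93.7 in UNx animals, and at 86.6, 238, 81.1 and 73.4 TPM in 72 h sham and 48.6, 53.4, 41.4 and 37.8 in UNx animals. All UNx animals lay below all sham animals at both times. The effects were -1.04 ± 0.33 and -1.21 ± 0.33 (limma adjusted p 0.178 and 0.247) and passed at neither time.

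**Figure D4:**
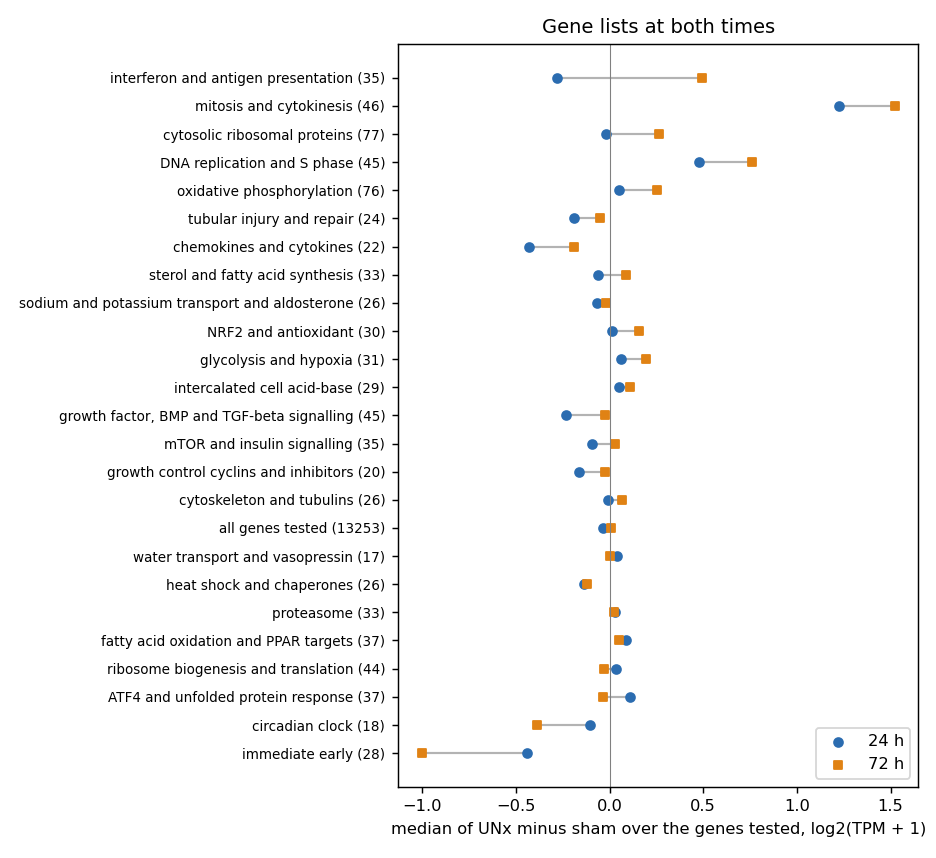
Median nephrectomy effect (UNx minus sham, log2(TPM + 1)) over the genes tested of each of 24 gene lists and of all genes, at 24 h (circles) and 72 h (squares), with the number of genes tested in brackets. Mitosis and cytokinesis had medians of 1.23 and 1.52, interferon and antigen presentation -0.28 and 0.50, and immediate early genes -0.44 and -1.0.

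The interferon and antigen presentation list had the widest change of median between times among the lists and no gene that passed. Its 35 tested genes had medians of -0.28 at 24 h and 0.50 at 72 h, a median difference of 0.87, and 33 of 35 had a positive difference. At an unadjusted p under 0.05 for the difference there were 7.

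Gbp2, an interferon-induced GTPase, was at 10.2, 26.2, 2.56 and 43.5 TPM in 72 h UNx animals and at 13.9, 2.88, 1.28 and 4.39 in sham animals. UNx animals 2 and 4 stood above all sham animals and UNx animals 1 and 3 lay among them. At 24 h it was at 8.30, 2.79, 5.88 and 3.01 TPM in sham and 1.99, 1.35 and 4.12 in UNx animals, which overlapped. The effect was -0.76 ± 0.35 at 24 h and 1.3 ± 0.65 at 72 h (limma adjusted p 0.337 and 0.740), a difference of 2.06 with an interval from 0.26 to 3.86. The sum of the 9 macrophage and leukocyte markers was 260 to 609 TPM in 72 h sham and 284 to 594 TPM in 72 h UNx animals, with 0 of the markers below 1 TPM. Leaving out each animal kept the median difference of the list between 0.65 and 1.17, and array weights gave 0.41. The part of resident immune cells was not tested.

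The immediate early list had negative medians, -0.44 at 24 h and -1.0 at 72 h over 28 genes tested, and 0 of its genes passed at either time. At 72 h 0 of 28 effects were positive, beside 6880 of 13253 over all genes. Leaving out 24 h UNx animal 2 moved the 24 h median to -0.17, and leaving out UNx animal 3 moved it to -0.64, with 1 gene then passing as lower. Nr4a1, an orphan nuclear receptor of this class, was at 185, 385, 167 and 310 TPM in 24 h sham and 347, 111 and 426 in UNx animals. At 72 h it was at 71.5, 1164, 1082 and 271 TPM in sham and 84.8, 149, 34.9 and 66.7 in UNx animals. The 72 h sham animals 2 and 3 were above all others. The 72 h effect was -2.35 ± 0.84 (limma adjusted p 0.501), and the part of dissection time and handling in the immediate early genes was not tested.

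Opposite movement was rare and did not pass the test. Tlr3, a receptor for double-stranded RNA, had 25, 23.4, 25.5 and 24.4 TPM in 24 h sham and 15.8, 21.1 and 20.4 in UNx, and 17.9, 16.5, 17.8 and 20.3 TPM in 72 h sham and 20.5, 22.0, 23.7 and 24.1 in UNx animals. Lgals4, a galectin of epithelia, went the other way, with effects of 0.32 ± 0.10 and -0.34 ± 0.12. In both genes the groups were apart at each time in opposite directions. The Tlr3 effects were -0.37 ± 0.11 and 0.38 ± 0.12, and the differences of 0.74 and -0.66 did not pass adjustment (unadjusted limma p 0.00025 and 0.00047).

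**Figure D5:**
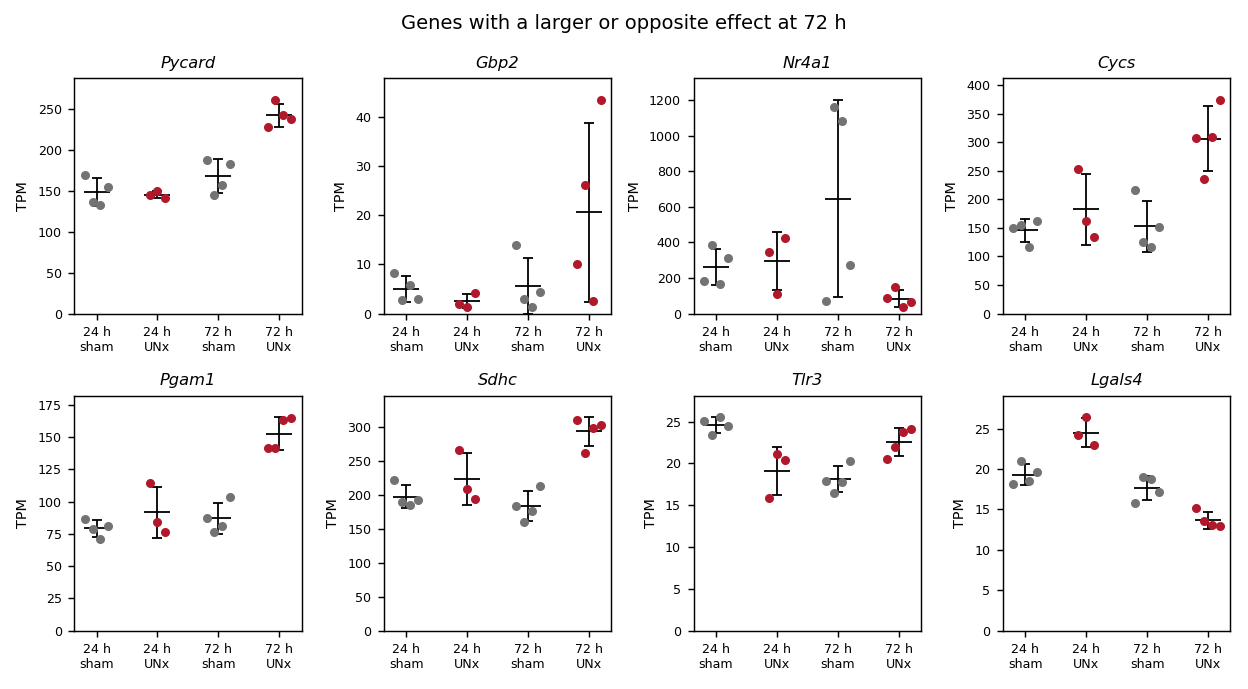
TPM in each animal of 8 genes with a larger or opposite effect at 72 h, drawn as in the plot of cell cycle genes, with the lower end of the SD bar of Gbp2 in 72 h sham cut at 0. Cycs, Pgam1, Sdhc and Pycard, an inflammasome adaptor, had all 72 h UNx animals above all 72 h sham animals, while Gbp2 had UNx animals 1 and 3 among the sham animals.

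Among 26 genes of sodium and potassium transport and aldosterone action, only Zbtb16, a corticosteroid-induced transcription factor, fell at 24 h (-1.17 ± 0.19, limma adjusted p 0.0320), and 0 passed at 72 h. Aqp2, the vasopressin-regulated water channel, had 10222, 34047, 33734 and 12023 TPM in 24 h sham and 48634, 30608 and 44731 in UNx animals, and 15340, 27745, 9362 and 11081 TPM in 72 h sham and 10567, 15965, 15347 and 17766 in UNx animals. The sham and UNx animals overlapped at both times, and sham animals spread widely. The effect was 1.06 ± 0.44 at 24 h (limma adjusted p 0.297) and 0.01 ± 0.31 at 72 h. Of 17 water transport genes 0 passed at either time, and the list had medians of 0.04 and 0.00.

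Single animals also decided many calls of single genes. Of the 20 genes named here as called at 24 h, Kitl, Stmn1 and Atp4a passed whichever of the 7 animals was left out, with limma adjusted p over the 20 genes from 0.00121 to 0.154. Cdkn1b was lost without UNx animal 1, Zfp871 and Ube2c without UNx animal 1 or 2, and Ccnd1 without sham animal 1 or UNx animal 1 or 2. The others were each lost without 4 or more of the 7 animals. In the model of the 4 groups 11 of the 20 passed, and Rps25, Ccnd1, Cdca3, Ccl20, Cdkn1b, Anp32a, Atp4a, Rrm2 and Tk1 did not.

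Of the 21 genes named as called at 72 h, Pbk, Birc5, Stmn1, Mcm3, E2f1 and Asf1b passed whichever of the 8 animals was left out, with limma adjusted p over the 21 genes from 0.00519 to 0.155. Top2a was lost without UNx animal 2 or 3, and Mcm6, Tacc3 and Cdk1 without UNx animal 1, 2 or 3. The others, Cycs, Pgam1, Sdhc and Cks2 among them, were each lost without 4 or more of the 8 animals. All 21 passed in the model of the 4 groups.

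The mean of both effects was tested as a contrast added after the data were seen. It called 198 genes higher (1.49%) and 89 lower (0.672%), including 44 of 46 mitosis genes and 26 of 45 DNA replication genes, 0 of each lower. Kitl was among the genes lower by this contrast (limma adjusted p 0.00236). Its count of 287 became 189, 177 and 766 without 24 h UNx animal 1, 24 h UNx animal 2 or 72 h sham animal 1, and 592 without the 72 h sham library of low correlation. The split by direction turned in the last 2 of these, to 286 higher and 480 lower without 72 h sham animal 1 and 252 higher and 340 lower without the library. With array weights 923 genes were called, 354 higher and 569 lower.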

How the data were processed

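The authors deposited 1 table of TPM values for each segment and time, and the 2 CCD tables (55487 genes at 24 h, 53700 at 72 h) were used. Per the submitters' processing notes, the tools were STAR and RSEM 1.3.3 and the build GRCm39; no step order is given. Per the labels' protocols, cDNA came from a low-input SMART-Seq kit. TPM keeps no depth, so counting error could not be set. Of 28 columns, 19 matched a library by name and number, 4 had another library number and were assigned as the only library of their animal, and 5 matched only an animal and group, which does not touch animal means. The number in a label was read as the animal; where separate animals are not stated, p-values measure the spread between these samples, which may be technical.

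Libraries were averaged per animal on log2(TPM + 1), which understates changes of low genes. limma 3.58.1 in R 4.3.3 (empirical Bayes with a mean-variance trend, two-sided, Benjamini-Hochberg, threshold 0.05) was fitted to each table and to all 4 groups for the difference, with 95% intervals, after a check on simulated data. Members and lists were chosen with earlier results of these data known. Genes were named by rule: smallest p of the difference, largest effects of each class, 2 members of each list, segment markers, at 10 TPM or more; 1 gene named by rule is not reported here, and others are said to be chosen after their values were seen. Lengths are from GENCODE (99.9% of genes matched). Alternatives were other pseudocounts, filters, scalings, weights, models and each animal left out.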

Additional observations from a re-analysis of the deposited data

Results flagged for a closer look

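Among 114 groups of 4 animals, 4 had an animal far from the other 3, by the gap to the nearest animal as a share of the whole range (Dixon's 95% critical value); chance gives such a gap in about 1 in 20 groups. In 72 h sham, animal 2 was lowest for Asf1b (3.32 TPM, others 4.09 to 4.26) and highest for Stc1 (238 TPM, others 73.4 to 86.6). In 72 h UNx, animal 4 was highest for Rps25 (528 TPM, others 458 to 466) and animal 2 was lowest for Plekhd1 (17.6 TPM, others 41.9 to 43.9).

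Among the 13253 genes tested, all UNx animals lay above all sham animals at both times for 154 genes, and below them at both times for 29. For 5 genes, all UNx animals lay on one side of sham at 24 h and on the other side at 72 h. The number of such genes that chance gives was not worked out, so these 5 are a description only. The difference of the effects was 1.08 for Atm, a DNA damage kinase, 2.18 for the predicted gene Gm9442, -0.66 for Lgals4, 0.74 for Tlr3 and -0.39 for Tmem234. By limma none of the 5 passed adjustment over all genes, with unadjusted p between 0.00018 for Gm9442 and 0.0022 for Tmem234.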

How the results depend on the processing

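The difference of effects called 0 genes in every setting except without 72 h sham animal 4, giving 0 to 1 with animals left out. With animals left out the calls ranged from 6 to 135 at 24 h, 8 to 82 at 72 h, 2 to 30 at both times and 177 to 766 for the mean effect; size classes ranged from 22 to 79 (early only), 12 to 41 (late only), 47 to 72 (shared) and 0 to 1 (opposite), and late only by test from 0 to 1. A pseudocount of 0.1 gave 81 early-only and 29 late-only genes by size. A mean of at least 5 TPM gave 33 calls at 72 h, 19 at both times, 20 early-only, 4 late-only and 23 shared genes by size and 151 for the mean effect, with fewer genes tested. With no filter the calls were 1 at 24 h, 7 at 72 h and 0 at both times. The animal as a random effect gave 485 at 24 h, 67 at both times and 610 for the mean effect, and arrayWeights 203 at 24 h and 923 for the mean effect. The model of the 4 groups gave 47 at 24 h and 207 at 72 h. Without the low-correlation library, 128 genes were called at 72 h and 592 for the mean effect. The cause was not tested for these.

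The replicate block, which pairs sham and UNx animals by number, gave 0 calls at 24 h, 3 at 72 h, 0 at both times and 0 for the difference. Same-number correlations of deviations were 0.07, -0.19 and -0.08 at 24 h and 0.17, 0.0016, 0.22 and -0.03 at 72 h, and no animal correlated best with its own number.

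Of 2020 differences of named genes over settings, 38 changed sign, with values between -0.24 and 0.24, and 0 newly passed. Gm20650, Cdk1, Ube2c, Cdkn2c, Zbtb16, Rrm2 and Tk1 were not among the genes of this count. Gm20650 did pass without 72 h sham animal 4, as given above. Birc5 was -0.038 with a pseudocount of 0.1, -0.064 with quantile normalization, -0.017 with median-ratio scaling, -0.0052 with the random effect, -0.24 with arrayWeights, -0.034 with the replicate block and -0.040 without the low-correlation library. Scnn1b was -0.038 with median-ratio scaling, -0.086 with arrayWeights and -0.090 without the library. With arrayWeights, Top2a was -0.033, Cdca3 -0.17, Atp6v1b1 -0.11 and Slc4a1 -0.0056, and Slc4a1 was -0.18 without the library. With animals left out the ranges were -0.0090 to 0.50 for Top2a, -0.074 to 0.54 for Cdca3, -0.18 to 0.27 for Birc5, -0.61 to 0.22 for Stc1, -0.056 to 0.12 for Scnn1b, -0.18 to 0.45 for Slc4a1 and -0.31 to 0.24 for Slc26a4.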
